A study of Cucumis melo with 12 samples.

Results

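In radicles from melon seeds treated with the high dose of *B. velezensis* FZB42, 181 melon genes had reads where mock radicles had none. They are the melon gene IDs (MELO3C) of the high-dose radicle list with a mock value under 1e-10 and a high-dose value over 1, not on the seed mock list and without 3 genes left out by name. They make up 181 of 3256 identifiers on all 6 deposited lists, and 181 of 2943 melon IDs on the high-dose list. They were chosen by their mock and high-dose values, so being above mock is how they were selected and not a result. Their levels are therefore given as a description, with no test and no p-value.

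The study sequenced RNA of *Cucumis melo* seeds and radicles in 12 libraries, 2 for each of 6 groups, to ask how the inoculum dose changes the early transcript program of the seedling. Mock seeds were immersed in water, and treated seeds in bacterial suspensions adjusted to a log10 CFU per ml of 7 (low dose) or 8 (high dose). All seeds, mock included, were of the variety Rochet Panal and were surface sterilized first, and radicles were taken when 5 days old, after growth in darkness on moist filter paper. Mock, high-dose and low-dose radicles are the groups used here, and the methods call the libraries of a group biological duplicates. The labels name polyadenylated RNA, whereas the methods describe removal of ribosomal RNA. The bacteria were alive on the seed, so a radicle sample is plant tissue that may carry them.

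The radicle is the embryonic root, the first organ to leave the seed coat, and it soon meets the microbes that were on the seed. *B. velezensis* is a spore-forming bacterium that colonizes roots and releases lipopeptides, and FZB42 is a much used plant-growth-promoting strain. A gene without reads in one condition can be silent, or can be transcribed below what the sequencing depth detects, and a library with few reads cannot separate these. In tissue RNA, fewer cells of a type and less transcript per cell cannot be told apart either. None of the 181 IDs is paired with a gene name or a description in the sources used here, and 0 matched the gene table supplied, so the genes are called by their IDs. For the same reason root markers could not be looked up, and the tissue label was not checked.

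The deposited values are 1 number per gene and group, on the scale of reads moved to a common library size. Their low values recur exactly, and each could be traced back to 1 pair of whole reads, one from each of the group's libraries. This held for 858 of 858 high-dose values up to 400, for 608 of 608 mock values and for 75 of 75 low-dose values, within a relative tolerance of 2e-09. After the values had been shifted by a relative 1e-05, only 0, 1 and 0 of them matched. The libraries inferred this way carry no replicate number, so they are called A and B within each group, and a letter does not link libraries of different groups. Relative to the common size, the high-dose libraries had sizes of 1.23 (A) and 0.728 (B), the mock libraries 0.896 and 1.24. The low-dose list was scaled apart, with sizes of 0.671 (A) and 1.24 (B). Only relative sizes were recovered, and the total depth of each library is unknown here.

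Being listed at 0 in mock was not confined to the 181. Of all 3106 genes on the high-dose list, 201 (6.47%) had a mock value under 1e-10 and a high-dose value over 1, of which 186 were melon IDs and 15 were XLOC loci. Apart from the 3 melon genes left out by name, 2 were left out because the seed mock list holds them. No member is on the high-dose or low-dose seed list either.

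Most of the genes were just above the lowest level at which the list holds genes above mock. Their listed high-dose values ran from 10.1 to 1730, with a median of 18.05 and quartiles of 13.2 and 25.8. In all, 105 members (58.0%) lay under 20, another 64 between 20 and 40, and 11 between 40 and 100. The lowest value of any gene above mock on the high-dose list was also 10.1, so its genes above mock begin where the lowest members lie. Genes below mock went lower on the list, in 8 cases to 0. One member, MELO3C001711, lay at 1730, which was 22.5 times the second highest. Together the 181 genes held 0.0441% of the summed high-dose values.

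**Figure D1:**
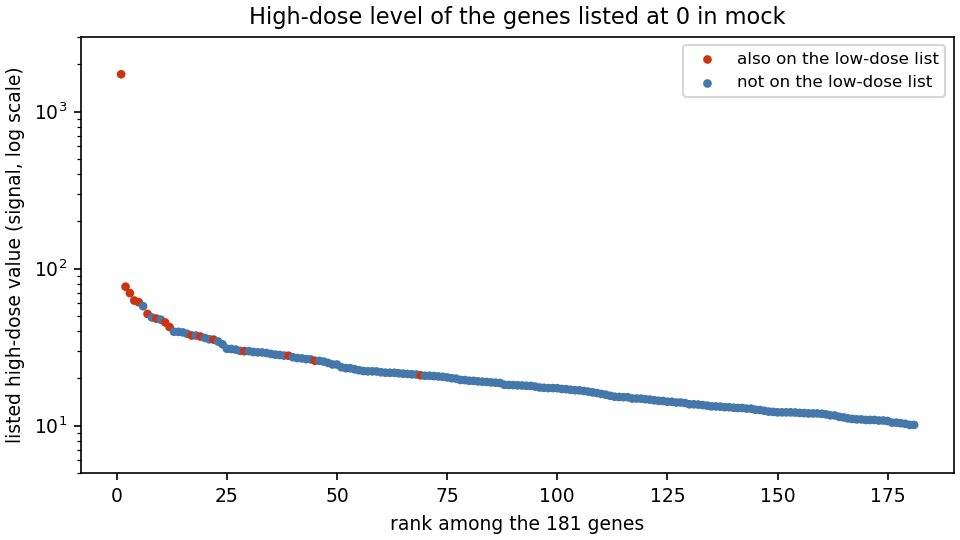
Listed high-dose value (signal, log axis) of each of the 181 genes, ordered from highest to lowest, with 1 point per gene and 1 value for both libraries together. Red points are the 16 genes that are also on the low-dose list. One gene stands at 1730, and the other 180 run without a gap from 76.7 down to 10.1.

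In reads, the members rested on small numbers. Over both high-dose libraries the fewest reads of a member were 19, the median was 31, and all but MELO3C001711 had 113 or fewer. With 0 reads in mock a fold change is only a lower bound, which was computed against a floor of 3 reads over both mock libraries. On that basis the members were at least 6.91-fold to at least 1551-fold higher at the high dose, with a median bound of 11.3. Without MELO3C001711 the largest bound was 41.1. These bounds cover only the counting error of the 0 in mock. The high-dose reads entered as counted, without their own counting error, and the spread between libraries was not part of the bounds.

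At the low end, MELO3C011563 and MELO3C029789 shared the value 10.1, each with 13 reads in library A and 7 in library B. MELO3C028677 had 15 and 6 reads (listed at 10.3), MELO3C011604 had 12 and 8 (10.4), and MELO3C024097 had 9 and 10 (10.4). In each of these 5 genes both libraries held reads, and the exact interval of the share in B spanned the share expected from the library sizes. Such small read numbers give few possible values: 53 members (29.3%) shared their listed value with another gene of the list, compared with 1.82% of the rest of the list above 0. The value shared by most members was 12.1, which 4 of them had with 5 and 15 reads.

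At the high end, MELO3C001711 had 4267 reads in library A and 0 in library B. Taking 3 reads as an approximate limit of a count of 0, about 0.0703% of its reads could be in B, and the wider exact 95% interval reached 0.0864%. If both libraries held the gene evenly, 37.1% would be expected there. Its level of 1730 is therefore the mean of a library at 3460 and a library at 0. The next highest gene was uneven in the other direction: MELO3C011092 (76.7) had 2 reads in A and 111 in B. MELO3C027958 (69.8) had 22 and 89 reads, MELO3C032720 (62.6) had 6 and 88, and MELO3C011246 (61.1) had 4 and 87. In these 4 genes B exceeded A by 94.0, 6.85, 24.8 and 36.8 times after division by library size.

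The others among the 10 highest leaned the same way as these 4. MELO3C032743 (57.6) had 19 reads in A and 73 in B, MELO3C011745 (51.5) had 9 and 70, and MELO3C006850 (48.8) had 26 and 56. MELO3C030765 (48.0) had 14 and 62 reads, and MELO3C012803 (47.3) had 29 and 52. Relative to library size B was 6.51, 13.2, 3.65, 7.50 and 3.04 times A in these 5 genes. In 9 of the 10 highest genes, then, most of the listed value came from library B, and in the highest one all of it came from library A.

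Library B carried most reads of the other members as well. The median member had 68.3% of its reads in B, against 37.1% if even, and B was the higher library relative to its size in 160 of 181. The exact (Clopper-Pearson) 95% interval of the share in B lay wholly above 37.1% in 116 members (64.1%), wholly below it in 4, and included it in 61. These intervals cover counting error only, and reads from amplified libraries are not independent molecules. By size, B was at least 4-fold above A in 82 members and A at least 4-fold above B in 2. Summed over the members without MELO3C001711, library A held 2106 reads and library B 4397, which is 1708 and 6039 after division by size.

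Most members had reads in both libraries. Of the 181 members, 173 had reads in both high-dose libraries, and 162 had at least 3 in each. Reads in 1 library only were seen in 8 of 181 members. They were seen in 3 of 194 other melon genes above mock with a high-dose value between 10.1 and 76.7. Among genes with 33 to 113 reads, it was 7 of 79 members and 2 of 175 of the others. Library A alone lacked 6 of them, with 36 to 58 reads in B: MELO3C011690 (58 reads), MELO3C032851 (53), MELO3C032390 (52), MELO3C016611 (41), MELO3C015991 (38) and MELO3C023118 (36). Library B lacked 2, MELO3C001711 and MELO3C025902, the latter with 70 reads in A. Only MELO3C000631, with 40 and 8 reads, and MELO3C026148, with 23 and 4, also had an interval below the even share.

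**Figure D2:**
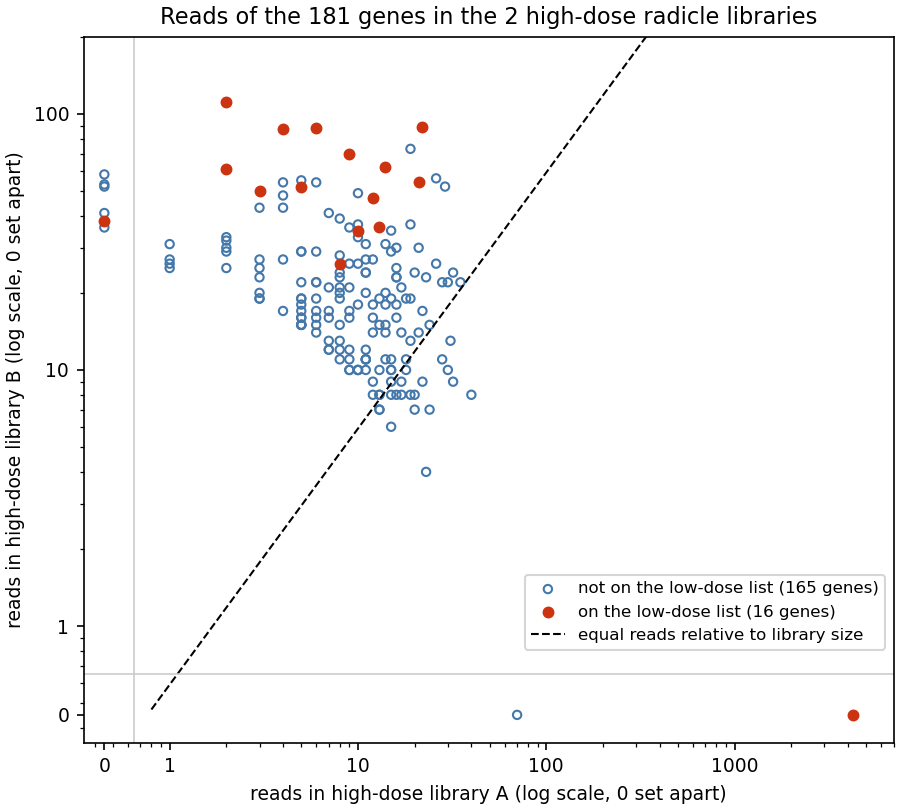
Reads of each of the 181 genes in high-dose library A (x axis) and library B (y axis), both on log axes with 0 set apart beyond the grey lines, and points of equal reads drawn on top of each other. The dashed line marks equal reads relative to library size, and 160 genes lie above it, that is, higher in library B. MELO3C001711 lies alone at the lower right, with 4267 reads in A and 0 in B.

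The lean to library B was not particular to genes at 0 in mock. For comparison, 194 other melon genes above mock had a high-dose value between 10.1 and 76.7. In 86.1% of them the interval lay above the even share and in 5.15% below it, with a median share of 72.6% in B. They had more reads (median 68, against 31 in the members), and an uneven share is easier to see with more reads. Among genes with 33 to 113 reads, the interval was above the even share in 61 of 79 members (77.2%) and in 152 of 175 of the others (86.9%). The 40 melon genes below mock with a high-dose value above 0 and up to 76.7 leaned the other way: their median share in B was 23.0%, with 4 intervals above the even share and 15 below. The part that this imbalance between the duplicates has in the choice of the 181 genes was not tested.

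The mock libraries were uneven over the same comparison genes. In the 194 genes, mock library A held 801 reads and mock library B 283, although B was the larger library and 58.1% of reads would be expected there. Of them, 138 had mock reads in A alone, 5 in B alone and 51 in both. Where mock reads numbered 1 to 3, A held 157 reads and B 14 over 95 genes. Among 39 of the genes below mock, whose mock reads could be recovered, 0 had mock reads in A alone and B held 68.5%. That set leaves out genes at 0 at the high dose. Of those, MELO3C027639 (86 reads in A and 0 in B) and MELO3C010820 (42 and 0) had mock reads in A alone. Among the genes of the high-dose list, 350 in place of 181 would have met the rule without mock library A. Leaving out mock library B would have given 187. These recounts use the same mock values as the rule and are a description.

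Genes with few mock reads lay next to those at 0. By the number of reads in both mock libraries, the high-dose list held 186 melon genes with 0, 33 with 1, 50 with 2, 15 with 3 and 25 with 4, all of them above mock. The median high-dose value rose from 18.1 at 0 mock reads to 27.5 at 1, 33.4 at 2, 36.5 at 3 and 38.8 at 4. The lowest high-dose value was 10.1 at 0 mock reads, 17.9 at 1, 21.1 at 2 and 30.8 at 3, then 26.4 at 4 and 27.6 at 5. The list holds only selected genes, and a gene with more mock reads needs a higher value to differ from mock as much. How the list was made can set these rises and the absence of genes below mock, which was not tested. Just outside the rule, at a listed mock value of 0.549, stood the 33 genes with 1 mock read, which was in mock library A in all 33. The first 3 of them by ID are MELO3C000464 (11 and 95 reads at the high dose), MELO3C000692 (9 and 26) and MELO3C001555 (4 and 43). Those genes differ from members of like level by a single mock read.

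**Figure D3:**
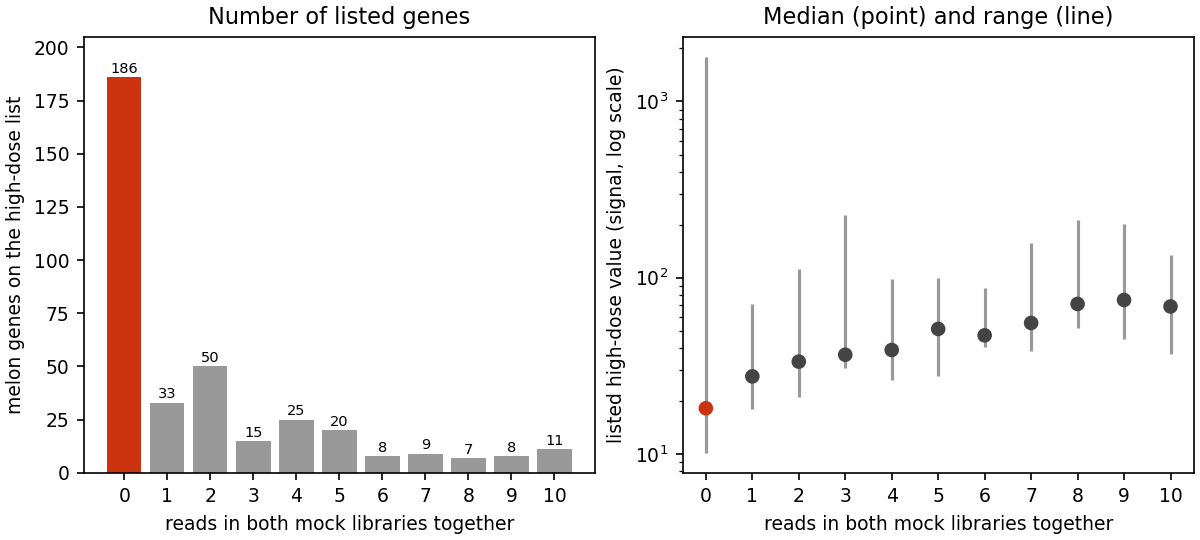
Melon genes on the high-dose list with 0 to 10 reads in both mock libraries together (x axis), on the left their number, on the right the median (point) and range (line) of their listed high-dose value (signal, log axis). Red marks 0 mock reads, with 186 genes and a median of 18.1. The number falls to 33 at 1 read, while the median rises to 27.5. The list holds only selected genes, which can set both patterns.

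At the low dose, 16 of the 181 genes (8.84%) had a listed value, and the other 165 have none here, which does not mean that they were at 0. The share is near that of the high-dose list as a whole, of which 8.05% is on the low-dose list. On the low-dose list itself, 24 of 291 genes (8.25%) were at 0 in mock and above 1. The 16 were among the more abundant members, with a median high-dose value of 43.9.

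All 16 were listed higher at the low dose than at the high dose. The median log2 ratio of low over high was 1.82, which is 3.52 times, and the range was 0.58 to 2.39. That size rests on the scaling and on single libraries: the median was 0.13 after quantile normalization, 4.24 against high-dose library A alone and 1.07 against library B alone. With low-dose library B alone, 0 of the 16 were higher at the low dose, and the median was -5.49 after a pseudocount of 1. Other genes of like level were also listed higher at the low dose. This was so in 27 of 27 other genes on both lists with a high-dose value under 100, with a median of 1.70. Over the other 233 genes above 0 on both lists the median was 0.17, and 165 (70.8%) were higher. Among genes above mock the low-dose list begins at 78.3, and 180 of the 181 members lay under that at the high dose. Being on both lists thus fixes the direction for all members but MELO3C001711. It likewise fixes it for other genes above mock with a high-dose value under 78.3. The lists of both doses share the mock libraries, and the doses were scaled apart, so the ratio is given as listed.

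The listed low-dose values rested on 1 library. In 14 of the 16 genes low-dose library B, the larger one, had 0 reads, and over all 16 library A held 6643 reads and library B 3, where 64.9% would be expected in B if even. MELO3C001711 was listed at 2816, with 3778 reads in A and 0 in B, which by the approximate limit of 3 reads allows about 0.0794% in B. It was thus carried by a single library at both doses. The exceptions with reads in B were MELO3C029481 (141 in A and 2 in B) and MELO3C000069 (249 in A and 1 in B).

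The members with the largest ratios were MELO3C029010, MELO3C033028, MELO3C000069 and MELO3C029481. MELO3C029010 went from 35.3 at the high dose (3 reads in A, 50 in B) to 183 at the low dose (246 in A, 0 in B). MELO3C033028 went from 37.5 (5 and 52 reads) to 197 (264 and 0), and MELO3C000069 from 36.9 (12 and 47) to 186. MELO3C029481 had the lowest high-dose value of the 16, 20.9 (8 and 26 reads), and the lowest low-dose value, 106. In each of these genes reads were present in both high-dose libraries, while the low-dose value came almost wholly from one.

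A middle group had ratios near the median. MELO3C015991 went from 25.9 (0 and 38 reads) to 110 (147 and 0), MELO3C028760 from 27.9 (10 and 35) to 114.0 (153 and 0), and MELO3C032757 from 29.8 (13 and 36) to 116 (156 and 0). MELO3C030765 went from 48.0 to 184 (247 reads in A and 0 in B at the low dose). MELO3C003058 went from 45.4 (21 and 54 reads) to 147 (197 and 0), and MELO3C011246 from 61.1 to 182 (244 and 0). For MELO3C011246 a count of 0 in B, by the same approximate limit, allows about 1.23% of the low-dose reads there.

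The other members differed less between doses. MELO3C011745 went from 51.5 to 138 (185 reads in A and 0 in B), MELO3C032472 from 42.4 (2 and 61 reads) to 112 (150 and 0), and MELO3C032720 from 62.6 to 119 (159 and 0). MELO3C027958 went from 69.8 to 129 (173 and 0), and MELO3C011092 from 76.7 to 115 (154 and 0). The smallest ratios were those of MELO3C011092, with a log2 of 0.58, and MELO3C001711, with 0.70. Apart from MELO3C001711 the listed low-dose values stayed within a narrow band, from 106 to 197, whereas the high-dose values of these 15 genes ran from 20.9 to 76.7.

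**Figure D4:**
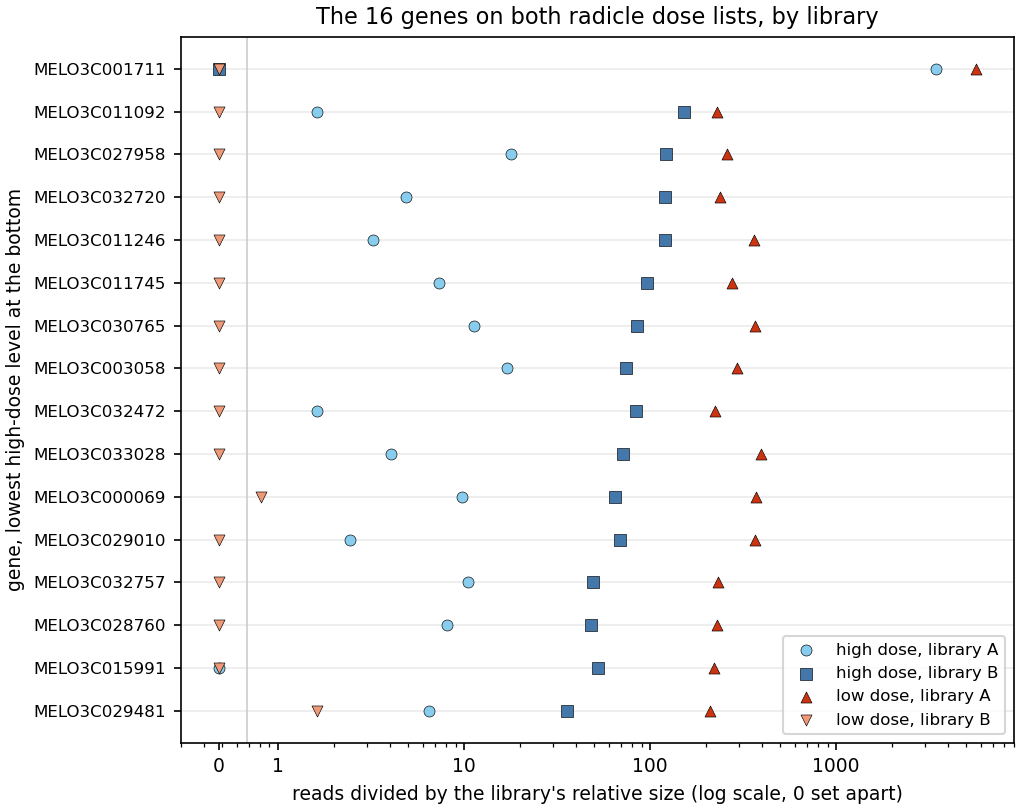
Reads divided by relative library size (log axis, 0 set apart at the left) of the 16 genes on both dose lists, with 1 row per gene and 1 marker for each of the 4 treated libraries (the mock libraries are all at 0). Sizes are relative to a common size that was set apart for each dose. Low-dose library B is at 0 in 14 of the 16 rows, and high-dose library B exceeds library A in 15.

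Low-dose library B was not empty at this level in general. Of 14 other genes of the low-dose list with mock reads and a listed value in the same range, 4 (28.6%) had 0 reads in B. This set was not limited to genes above mock, and it leaves out genes at 0 in mock. XLOC_029860 (listed at 112.5, 151 reads in A and 0 in B) and MELO3C031914 (130.4, 175 and 0) were at 0 in mock and in that range. Both were as uneven as the 16. In the 16 genes the low-dose duplicates thus stood far apart, with 141 or more reads in A and at most 2 in B.

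The numbers in the gene IDs, which the rule did not use, were high in the members. IDs numbered 28000 or above made up 92 of 181 members (50.8%), compared with 10.5% of the other 2762 melon genes on the high-dose list. The share was 22.4% in the other genes above mock and 4.91% in those below. It was 40.7% in the 194 genes of like level and 51.5% in the 33 genes with 1 mock read, so it was high in other genes of low level above mock too. In the 40 genes below mock with a high-dose value above 0 and up to 76.7 it was 32.5%, so genes of low level below mock also had a raised share. What a high number stands for in the melon annotation is not given in the sources used here.

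**Figure D5:**
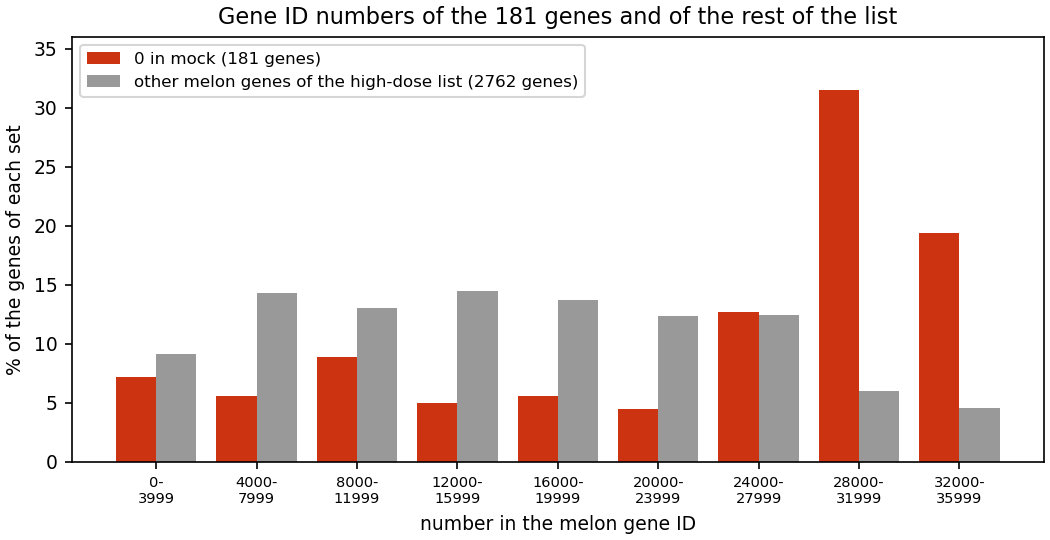
Share of the 181 genes at 0 in mock (red) and of the other 2762 melon genes on the high-dose list (grey) in each range of gene ID numbers (x axis), in % of the genes of each set. From 28000 to 31999 the shares were 31.5% and 6.01%, and from 32000 to 35999 they were 19.3% and 4.53%.

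The lean to high-dose library B was found on both sides of that number. It was seen in 63 of 92 members with an ID of 28000 or above (68.5%) and in 53 of 89 with a lower one (59.6%), and all 4 members that leaned to A had lower numbers. Some members have adjacent IDs: MELO3C027994 and MELO3C027995, MELO3C029075 and MELO3C029076, MELO3C030015 and MELO3C030016, and MELO3C030403 and MELO3C030404. The share of adjacent IDs among the other listed melon genes is not given here, so whether such pairs are frequent in the members was not assessed. Within these pairs the listed values were 12.8 and 22.1, 30.9 and 22.8, 10.9 and 18.8, and 11.02 and 18.68. Neighbouring IDs may share reads where their sequences are alike, which could not be checked without the gene models.

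The reverse case was rarer. Only 8 melon genes were at 0 in high-dose radicles and above 1 in mock, compared with the 186 melon genes at 0 in mock. Of these, MELO3C030347, which is on the seed mock list, was at 989 in mock, and the others were between 12.1 and 47.9. Their mock reads were again uneven in part: MELO3C027639 had 86 reads in mock library A and 0 in B, and MELO3C010820 had 42 and 0. MELO3C013273 had 49 and 3 reads, and MELO3C026305 had 33 and 4. By contrast, MELO3C002545 had 13 and 12, MELO3C031411 had 14 and 28, and MELO3C035608 had 9 and 40. The mock reads of MELO3C030347 were not recovered.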

How the data were processed

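The authors deposited 6 lists, of which 3 hold radicle values (mock, high dose, low dose) as 1 signal per gene and group, for selected genes. The columns are named FPKM by the authors, but the deposited signal is not per gene length: it follows the form of reads moved to a common library size by quantiles of a negative binomial distribution and averaged over a group. The processing notes name Bowtie2 and SAMtools, and the methods the melon DHL92 genome and the sequencing provider's pipelines for differential expression. P-values of edgeR and DESeq2 were combined by the authors for plots, and neither tool was run here. Which step wrote the listed values is not stated in these sources. Samples were grouped by their titles.

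Relative library sizes and a dispersion (0.397 for mock and high dose, 1.73 for low dose) were fitted to recurring values. Each value up to 400, and each member's value, was then matched to whole reads. Reads simulated with the same form and the fitted sizes were recovered, which checks the matching and not the form. The simulated means stayed below the values of MELO3C001711. The form of the values and the settings of the fit were settled after the values were seen and after other settings had failed. The comparison set of 194 genes, the intervals and the counts per mock library were likewise chosen with the values known, and the members and gene sets with earlier results of these data known.

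Genes named are the 10 highest and 5 lowest members, all members on the low-dose list, 3 genes at the lowest mock value just outside the rule (the first by ID of 33 tied), and, chosen after their values were seen, members with reads in 1 library, those leaning to A, adjacent IDs and genes of the reverse case. No test was run, because the members were chosen by the values compared. Alternatives were other limits of the rule, scalings, pseudocounts, tolerances and ID limits, and leaving out each library. Computations ran in Python 3.11.15, with numpy 2.4.6 and scipy 1.17.1 for the fit, pandas 2.3.3 for the tables, and matplotlib 3.10.9 for the figures.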

Additional observations from a re-analysis of the deposited data

How the results depend on the processing

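The number of genes depended on the limits of the rule. It was 0 where mock had to be exactly 0, since zeros are listed as minute values above 0, and 403 with mock under 10, 76 with over 20 and 1 with over 100 at the high dose. Leaving out one library in turn gave 175 to 350 genes, the 350 without mock library A. The median high-dose level was 1730 over 100 at the high dose, 31.11 after median ratio scaling, 9.02 after quantile normalization and 27.9 over 20, and from 8.11 (library A alone) to 26.1 (library B alone) with one high-dose library. The number on the low-dose list was 1 over 100 at the high dose, and 2 to 16 with one low-dose library, the 2 from library B alone. The median log2 ratio of low over high was 0.13 after quantile normalization and ran from 1.07 to 4.24 with high-dose library A, high-dose library B or low-dose library B left out. With low-dose library A left out, 14 genes at 0 gave no ratio, and the median was -5.49 after a pseudocount of 1, an alternative chosen after the data were seen. The number of genes sharing a value was 80 at a tolerance of 0.001, and 59 members had IDs of 30000 or above, 32.6% compared with 7.42% of the other listed melon genes. The other alternatives run stayed within 1.5 times the count, or within the spread between the libraries. No paired analysis was possible because the lists hold no values per numbered replicate and no result comes from a test. Total depth is unknown, so precision is limited by the reads of each gene, 31 in the median member.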

Other observations

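Beside the 181 genes, other identifiers were at 0 in mock radicles, some of them with the same kind of imbalance between libraries. XLOC_030088, which is on the seed mock list, was listed at 965.5 at the high dose, with 2381 reads in library A and 0 in B. XLOC_020094 had 156 and 144 reads at the high dose but 513 and 1 at the low dose. On the low-dose list alone, XLOC_032053 had 1829 reads in low-dose library A and 0 in B, XLOC_000325 had 490 and 12, MELO3C031914 had 175 and 0, and MELO3C004317 had 103 and 4. The proteasome subunit beta gene MELO3C027069, left out because the seed mock list holds it, went the other way at the low dose: its reads in libraries A and B numbered 289 and 2450 for the high dose, then 0 and 6300 for the low one. These genes were chosen after their values were seen.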
